A study of Mus musculus with 8 samples.

Results

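The imprinted growth regulators are 9 mouse genes of which a single parental copy is normally active and whose products promote or restrain growth. They were matched by gene symbol in a table that compares Yoda1 with DMSO, and 6 of the 9 had a row among 20972 rows. Mest, Plagl1, Igf2 and Impact are paternally expressed and Grb10 and H19 are maternally expressed. The paternally expressed Peg3 and Ndn and the maternally expressed Cdkn1c had no row under their symbols or gene IDs and were not analysed here. The list was drawn up with the fold changes of this same comparison known, so the values of its members below are a description, and their number supports nothing by itself.

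MC3T3-E1 subclone 14, an osteoblastic line from mouse calvaria grown from 1 subclone, was given 10 µM Yoda1 for 24 h or the solvent DMSO for the same time. Yoda1 is a small-molecule agonist of PIEZO1, a mechanically gated calcium-permeable channel. Each group had 4 samples. The labels state that the submitters left DMSO replicate 3 and Yoda1 replicate 1 out of their final analysis because of batch variation, which leaves 3 samples a group. All gene values come from a single comparison that the authors deposited, with 1 mean and 1 fold change per gene and no value per library, so the spread between libraries enters only through the standard errors. Nothing in the sample labels says that the replicates were separate cultures, so the p-values may measure technical spread. Depth per library is unknown, and the mean normalized counts of all rows summed to 19849773.

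Imprinted genes are often marked by DNA methylation set in the germ line, and the copy from the mother or the copy from the father is normally silent. Many act on fetal growth, where paternally expressed genes often promote growth and maternally expressed genes often restrain it, and a number of them are expressed in mesenchymal tissues and fall in level after birth. In this group, IGF2 is a growth factor and GRB10 an adaptor that dampens insulin and IGF receptor signalling. PLAGL1 (also called ZAC1) is a zinc finger transcription factor known to act on other imprinted genes. The parental labels used here are textbook knowledge, since the table does not separate alleles, and imprinting was not measured.

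Mest, Plagl1 and Grb10 are the members with both a high level and a printed promoter in RefSeq, so their promoters (250 bases before to 50 after the annotated start, build GRCm38.p6, 5′ to 3′) are shown with each CpG, the dinucleotide that carries imprinting methylation, in capitals. For a gene with several annotated starts, the window with the most CpGs was taken.
Mest promoter (chr6:30737800-30738099, plus strand): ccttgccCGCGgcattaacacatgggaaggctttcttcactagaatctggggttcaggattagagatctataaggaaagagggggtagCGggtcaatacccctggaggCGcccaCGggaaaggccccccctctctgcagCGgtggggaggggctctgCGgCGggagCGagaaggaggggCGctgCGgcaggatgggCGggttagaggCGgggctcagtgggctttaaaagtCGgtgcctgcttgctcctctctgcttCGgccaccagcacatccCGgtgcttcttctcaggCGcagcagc
Plagl1 promoter (chr10:13090582-13090881, plus strand): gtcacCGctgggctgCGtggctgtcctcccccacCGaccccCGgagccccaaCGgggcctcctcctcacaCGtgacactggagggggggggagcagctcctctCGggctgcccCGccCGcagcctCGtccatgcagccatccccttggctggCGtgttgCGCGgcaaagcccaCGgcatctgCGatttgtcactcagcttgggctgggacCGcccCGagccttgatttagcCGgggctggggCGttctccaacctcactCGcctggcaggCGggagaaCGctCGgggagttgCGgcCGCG
Grb10 promoter (chr11:12037371-12037670, minus strand): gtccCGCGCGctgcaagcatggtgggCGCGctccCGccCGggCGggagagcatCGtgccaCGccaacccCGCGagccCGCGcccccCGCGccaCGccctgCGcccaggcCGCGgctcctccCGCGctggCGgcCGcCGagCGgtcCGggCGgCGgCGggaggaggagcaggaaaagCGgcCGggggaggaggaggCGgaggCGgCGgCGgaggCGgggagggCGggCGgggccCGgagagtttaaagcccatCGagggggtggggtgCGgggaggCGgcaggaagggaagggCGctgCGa
The Mest window held 17 CpGs, that of Plagl1 26 and that of Grb10 45, against a median of 7 over 32851 promoter windows. Each of the 3 windows held TGCCGC, the hexamer bound by the imprint-protecting factor ZFP57 when methylated, with both strands searched, and 11.6% of all windows did. The hexamer itself holds a CpG and the windows of Mest and Grb10 were picked for CpGs, so nothing is read from that difference. An upstream Mest window with 8 CpGs and another Grb10 window with 9 CpGs did not hold it. GGGGCCCC, a palindrome reported for ZAC1, was in none of the 3 and in 1.08% of all windows, and neither motif contains the other. Such matches describe the letters of these windows and not binding. The windows were set by annotated starts, and whether any of them holds the methylated region that sets the imprint was not examined.

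A pair of imprinted transcripts also carries microRNAs, which were not measured here. The gene of miR-335 lies in an intron of Mest and that of miR-675 in an exon of H19, and their mature sequences from RefSeq (build GRCm38.p6) are given because both hosts are described below, with the seed, bases 2 to 8, in capitals.
mmu-miR-335-5p: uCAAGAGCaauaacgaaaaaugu
mmu-miR-335-3p: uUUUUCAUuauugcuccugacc
mmu-miR-675-5p: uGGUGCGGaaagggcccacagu
mmu-miR-675-3p: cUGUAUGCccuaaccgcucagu
No seed was shared among these 4 sequences.

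With Yoda1, all 4 members with a mean of at least 1000 normalized counts fell. At a threshold of 0.05 on the DESeq2 adjusted p given by the authors' deposited table, 5 of the 6 tested members were lower and 0 were higher. Among all 14653 tested genes, 22.1% were lower and 22.4% were higher by the same rule, 44.5% in all. Among the 4339 tested genes with a mean of at least 1000, 36.3% were lower, and 3.96% were lower with a log2 fold change of -1 or less, as all 4 of these members were. Because the members were chosen from this comparison, nothing is read from that difference. The median log2 fold change of the 6 was -1.66, beside -0.015 for all tested genes. Levels per group are given below as implied by the mean and the fold change for groups of equal size.

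Mest, the paternally expressed gene of an endoplasmic reticulum protein of the alpha/beta-hydrolase fold, stood farthest from 0. Its mean was 1831 normalized counts, which implies 3432 with DMSO and 229.7 with Yoda1. In the authors' deposited table its log2 fold change was -3.90 with a standard error (SE) of 0.11, a 14.9-fold lower level (95% interval 12.9 to 17.4). Only 2 of all tested genes had a Wald statistic (fold change over SE) further below 0, and 87 had a lower fold change.

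Plagl1, the paternally expressed zinc finger gene on chromosome 10, had a mean of 1522 normalized counts, or an implied 2437 with DMSO and 607 with Yoda1. It was 4.01-fold lower (95% interval 3.39 to 4.75; log2 fold change -2.00, SE 0.12) by the authors' deposited table. Its interval and that of Mest did not overlap. Impact, the paternally expressed gene on chromosome 18 whose product binds GCN1 and restrains the amino acid sensor kinase GCN2, had an implied 1368 normalized counts with DMSO and 678 with Yoda1. It was 2.02-fold lower (1.57 to 2.59; log2 fold change -1.01, SE 0.18) by the authors' deposited table.

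Grb10, maternally expressed in most tissues and located on chromosome 11, had the highest mean of the members before length is taken into account, 4227 normalized counts. The implied level was 5984 with DMSO and 2471 with Yoda1. It was 2.42-fold lower (95% interval 2.22 to 2.65; log2 fold change -1.28, SE 0.07) by the authors' deposited table, and that interval overlapped the interval of Impact and not those of Mest or Plagl1. Per kilobase of the median annotated transcript, the implied DMSO levels of Mest and Grb10 were 1340 and 1258 normalized counts, and those with Yoda1 were 89.7 and 519.7. Per kilobase, Mest thus went from the first of these 4 genes with DMSO to the last with Yoda1, where Plagl1 had 153.9 and Impact 180.2. These levels carry no error of their own, since no values per library were held.

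**Figure D1:**
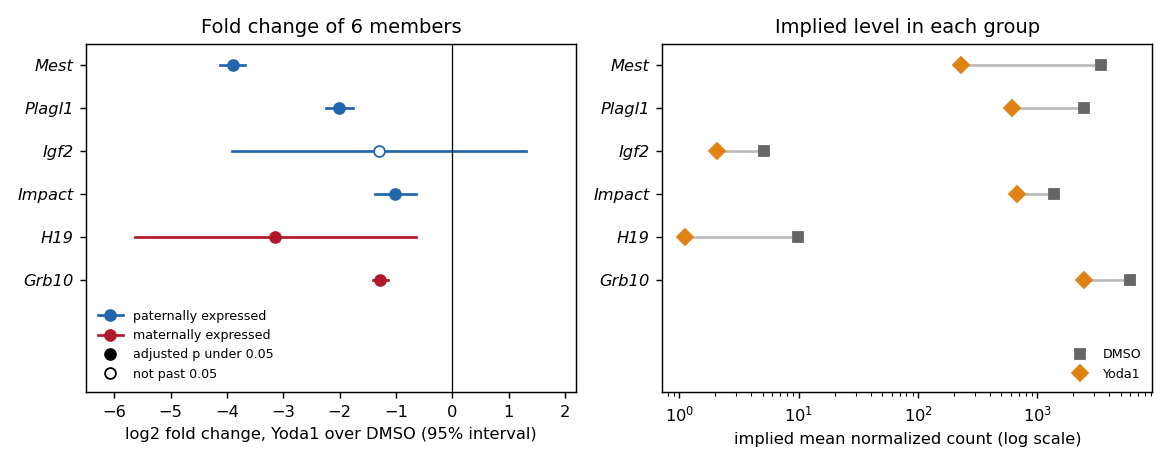
Left, log2 fold change (Yoda1 over DMSO) with its 95% interval for the 6 members in the authors' deposited table, blue for paternally and red for maternally expressed genes, filled where the adjusted p was under 0.05. Right, the level implied for each group in normalized counts on a log scale, where Mest goes from 3432 to 229.7 and Igf2 and H19 lie below 10 in both groups.

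H19 and Igf2, neighbours on chromosome 7 that share enhancers, were close to the lower limit of detection, so that little can be said of the classic pair. H19, a maternally expressed non-coding RNA, had a mean of 5.46 normalized counts, an implied 9.80 with DMSO and 1.11 with Yoda1. Its log2 fold change was -3.14 with a standard error of 1.27, and the 95% interval of the lower level ran from 1.57-fold to 49.6-fold (DESeq2 adjusted p = 0.0321 by the authors' deposited table). H19 no longer passed when its statistic was read against a t distribution with 4 degrees of freedom (adjusted p = 0.164) and when the fold change was tested against 0.5 on the log2 scale (adjusted p = 0.155), and over all alternatives the adjusted p lay between 0.0321 and 0.164. Igf2, the paternally expressed growth factor gene, had a mean of 3.59 normalized counts and a log2 fold change of -1.31 (SE 1.33, DESeq2 adjusted p = 0.463 by the authors' deposited table). A difference in Igf2 was not detectable at this level, as its 95% interval on the log2 scale ran from -3.92 to 1.31.

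**Figure D2:**
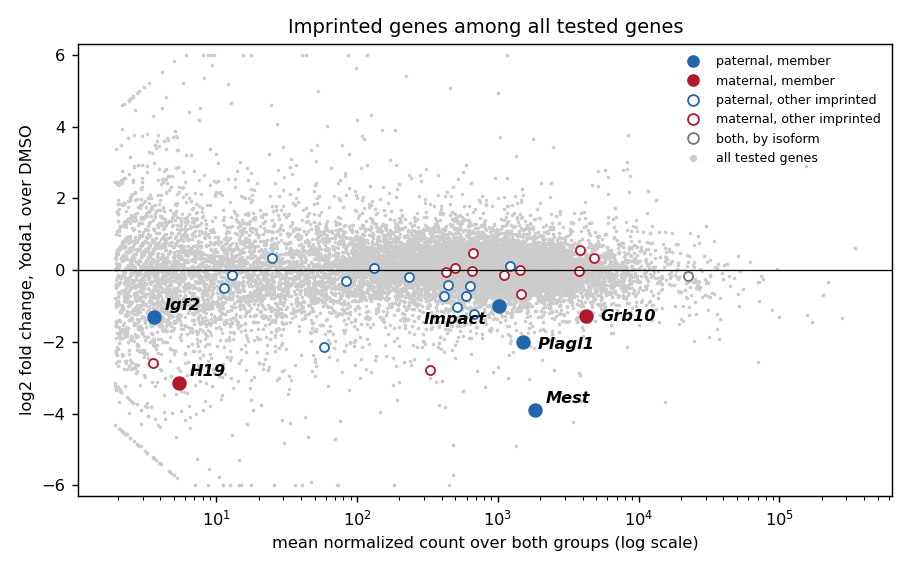
Log2 fold change (Yoda1 over DMSO) against the mean normalized count over both groups, on a log axis, for all 14653 tested genes in grey, with members as filled and other imprinted genes as open circles coloured by parental expression. The 27 genes past 6 or -6 are drawn at the edge. Mest, Plagl1, Grb10 and Impact lie below 0 at means above 1000, and Igf2 and H19 lie at the left, where grey points scatter widely.

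Among the members, the tested paternally and maternally expressed genes all had log2 fold changes below 0. Of 4 tested paternally expressed members, 3 were lower and 0 higher, beside 22.1% lower and 22.4% higher among all tested genes. Both tested maternally expressed members were lower, of which H19, at a mean of 5.46, did not pass against the t distribution. The members were chosen from this comparison, so nothing is read from these counts. The median log2 fold change was -1.66 for the paternal and -2.21 for the maternal members. That order rested on the low counts of H19 and Igf2: among members with a mean of 10 or more, the paternal median was -2.00 over 3 genes and the maternal value was -1.28, from Grb10 alone. So few chosen genes allow no test between the parental classes, and none was made.

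A wider list of 55 other imprinted genes, 27 paternally expressed, 27 maternally expressed and Gnas, which is expressed from either copy by isoform, showed a looser picture. Of 36 with a row, 27 were tested. Among these, 9 were lower and 3 higher, with a median log2 fold change of -0.17, beside 22.1% lower and 22.4% higher and a median of -0.015 among all tested genes. When the fold change was tested against 0.5 on the log2 scale, 4 passed, Dcn, Ddc, Dio3 and Zrsr1, and 0 were higher. Gnas itself had a log2 fold change of -0.17 (SE 0.08, DESeq2 adjusted p = 0.0623 by the authors' deposited table).

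Of 14 tested paternally expressed genes on that list, 7 were lower and 0 higher by the DESeq2 adjusted p, beside 22.1% and 22.4% of all tested genes. At an unadjusted p under 0.05, 0 of the 14 were higher as well. Their median log2 fold change was -0.43. Their means ran from 11.3 to 1214 normalized counts, and at the low end a change could be missed. Dio3, which encodes the deiodinase that inactivates thyroid hormone, was 2.35-fold lower (95% interval 1.95 to 2.83) with 681 normalized counts on average in the authors' deposited table. Zrsr1, a retrotransposed splicing factor gene matched by its gene ID, was 2.06-fold lower (1.72 to 2.46), and part of its reads could belong to its close copy Zrsr2. Peg10, a retrotransposon-derived gene, had a log2 fold change of -0.72 (SE 0.13) by the authors' deposited table. Sgce, the paternally expressed gene whose start lies less than 2 kb from that of Peg10, had 0.10 (SE 0.08, DESeq2 adjusted p = 0.329). With the 2 groups set to equal summed means, Sgce had 0.21 and passed (adjusted p = 0.0277, the lowest of its alternatives, which reached 1). Ddc, the dopa decarboxylase gene, paternally expressed in the embryonic heart, was 4.46-fold lower (2.91 to 6.83) at a mean of only 58.0 normalized counts. Gab1, a docking protein gene imprinted in placenta, had a log2 fold change of -0.73 (SE 0.11) by the authors' deposited table. Peg13 and Inpp5f, named after their values were seen, completed the 7, at -0.45 and -0.41 (SE 0.10 and 0.12). With a t distribution the adjusted p of Peg13 was 0.0532 (3.63e-05 to 1 over all alternatives) and that of Inpp5f 0.0862 (0.00149 to 1).

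Of 12 tested maternally expressed genes on the list, 2 were lower and 3 higher, beside 22.1% and 22.4% of all tested genes. The other 7 did not pass the threshold, and the median log2 fold change of the 12 was -0.029. Dcn, the gene of the matrix proteoglycan decorin, imprinted in placenta, was 6.84-fold lower (95% interval 5.51 to 8.50) by the authors' deposited table, and Copg2, which encodes a coatomer subunit, was 1.59-fold lower (1.44 to 1.77). H13, a signal peptide peptidase gene, was 1.48-fold higher (1.30 to 1.68) by the authors' deposited table. The other higher genes, named after their values were seen, were Igf2r, the clearance receptor for IGF2, 1.26-fold higher (1.15 to 1.37) with 4822 normalized counts on average, and Trappc9, with a log2 fold change of 0.47 (SE 0.12). Against that t distribution Trappc9 no longer passed (adjusted p = 0.0630, with 3.35e-06 to 1 over all alternatives). The difference between the paternal and the maternal genes was not tested, as genes are not replicates. Many maternal entries, 11 of the 12 tested, are imprinted only in certain tissues, against 4 of the 14 paternal entries.

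**Figure D3:**
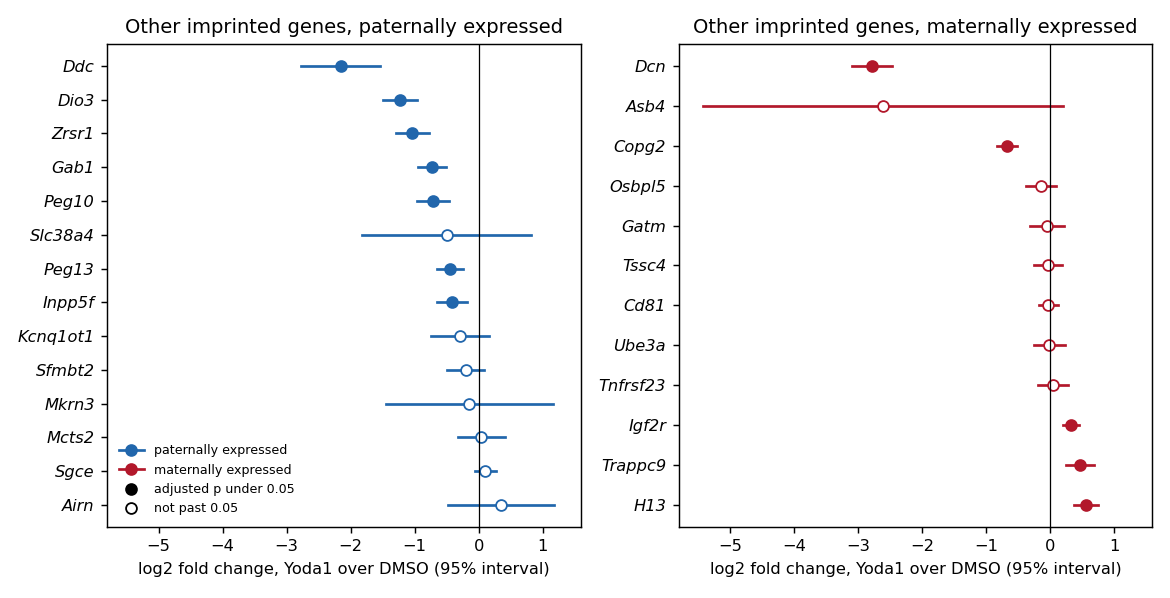
Log2 fold change (Yoda1 over DMSO) with its 95% interval for the other tested imprinted genes in the authors' deposited table, paternally expressed on the left (14 genes) and maternally expressed on the right (12 genes), filled where the adjusted p was under 0.05. On the left every filled point lies below 0, and on the right 2 lie below and 3 above.

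Imprinted genes that share a locus are set side by side next, without a test between them. Mest and Copg2 lie tail to tail on opposite strands of chromosome 6, and 23.1% of the annotated exon bases of Mest are also exon bases of Copg2. The sources used here do not say whether strand was used in counting, so reads from that stretch cannot be told apart, and the log2 fold changes were -3.90 and -0.67. On the other side of Mest, Cep41, a centrosomal protein gene that shares no exon base with it, was 2.73-fold lower (95% interval 2.24 to 3.32) by the authors' deposited table. Peg13 lies inside Trappc9 and had a log2 fold change of -0.45 where its maternally expressed host had 0.47. Mcts2 lies inside H13 and stood at 0.04 (SE 0.19, DESeq2 adjusted p = 0.885 by the authors' deposited table) where its host had 0.56. Airn, the non-coding RNA that overlaps Igf2r on the opposite strand, had a log2 fold change of 0.35 with a standard error of 0.42 at a mean of 25.0 normalized counts (DESeq2 adjusted p = 0.550 by the authors' deposited table).

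Of 20 tested genes, members aside, that start within 200 kb of a member, 7 were lower and 2 higher, beside 22.1% and 22.4% of all tested genes, with a median log2 fold change of -0.29. Against the t distribution 5 were lower and 0 higher. Around Plagl1, Ltv1, a ribosome assembly factor gene, had -0.41 (SE 0.10) by the authors' deposited table, and 2 of the 5 tested neighbours were higher. Those 2 were Sf3b5, a splicing factor gene at 0.46 (SE 0.14), and the non-coding B230208H11Rik at 2.99 (0.89) with a mean of only 10.2 normalized counts, both named after their values were seen. Ddc, next to Grb10, fell with it. Around H19, the lysosomal protease gene Ctsd and the leukocyte-specific protein gene Lsp1 had log2 fold changes of -0.65 and -0.95 (SE 0.10 and 0.16) by the authors' deposited table. In the Cdkn1c domain, 0 of 3 tested neighbours passed the DESeq2 threshold, and 0 had an unadjusted p under 0.05, in the authors' deposited table. Kcnq1ot1, the paternally expressed non-coding RNA of that domain, had -0.30 (SE 0.23, DESeq2 adjusted p = 0.314), and the maternal genes Cd81, Tssc4, Osbpl5 and Tnfrsf23 lay between -0.14 and 0.05. Near Ndn, the paternally expressed ubiquitin ligase gene Mkrn3 had -0.14 with a standard error of 0.66 (DESeq2 adjusted p = 0.889 by the authors' deposited table).

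**Figure D4:**
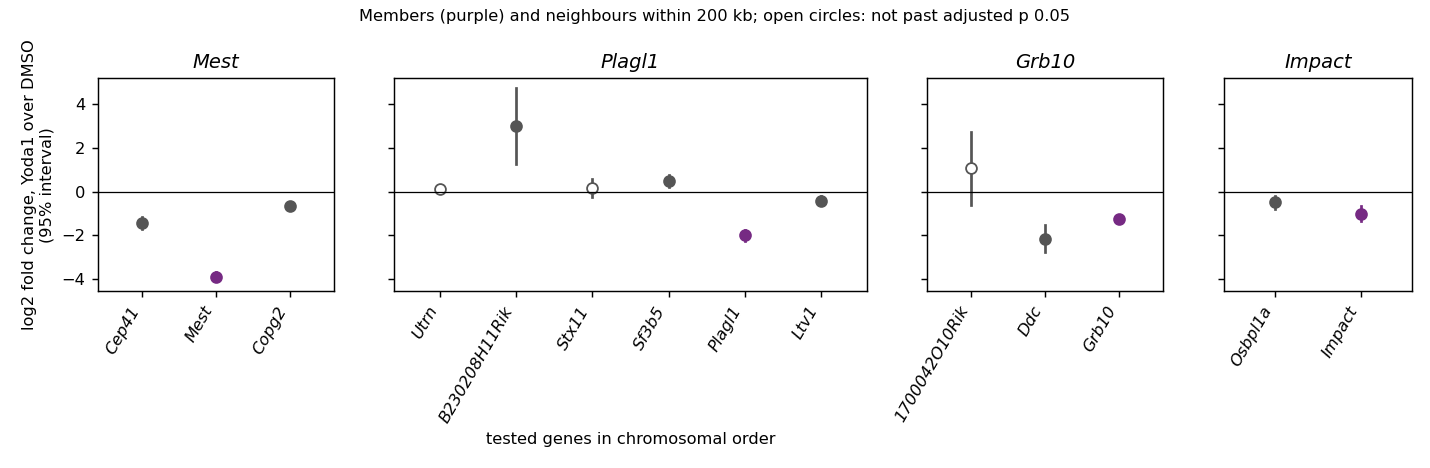
Log2 fold change (Yoda1 over DMSO) with its 95% interval for Mest, Plagl1, Grb10 and Impact (purple) and the tested genes within 200 kb of each (grey), in chromosomal order, filled where the adjusted p was under 0.05. Mest, Plagl1 and Impact lie below each of their neighbours, whereas Ddc lies below Grb10.

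Of 7 tested IGF and insulin partners of GRB10 and IGF2, 3 were lower and 3 higher, beside 22.1% and 22.4% of all tested genes. Irs1, the main docking protein of both receptors, was 3.36-fold lower (95% interval 2.94 to 3.83) by the authors' deposited table, and the receptor genes Igf1r and Insr were 1.22-fold (1.09 to 1.38) and 1.38-fold higher (1.18 to 1.62). The fetal RNA-binding protein gene Igf2bp3, whose product binds Igf2 mRNA, had a log2 fold change of -0.94 (SE 0.18) by the authors' deposited table. Against the t distribution, 2 of the 7 partners passed, Irs1 and Igf2bp3, and neither receptor gene did. Of 4 tested GCN2 partners 3 were higher, beside the 22.4% of all tested genes, namely Gcn1, which IMPACT binds, Eif2ak4, which encodes GCN2, and Atf4, the transcription factor translated when GCN2 is active. They were 1.49-fold (1.33 to 1.66), 1.41-fold (1.25 to 1.59) and 1.33-fold higher, the last at a log2 fold change of 0.42 (SE 0.09), and Impact was lower, in the authors' deposited table. These rises were small: 1 of the 3, Gcn1, was in the authors' class of higher genes, which asks for more than 0.5 on the log2 scale, and 0 passed a test against that fold. Eif2s1, the GCN2 substrate, had a log2 fold change of 0.23 (SE 0.13, DESeq2 adjusted p = 0.126).

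Of 9 tested relatives of the members, 3 were lower (Grb14, Maged1 and Maged2) and 2 higher (Plagl2 and Nsmce3), beside 22.1% and 22.4% of all tested genes. The means of the relatives ran from 28.3 to 13694 normalized counts. Among all tested genes with a mean of at least 1000, 36.3% were lower. With the t distribution, the authors' class or the test against 0.5, 3 relatives were lower and 0 higher each time. Grb14, the closest adaptor to Grb10 and itself not among the imprinted genes listed, was 2.11-fold lower (95% interval 1.78 to 2.50) by the authors' deposited table, an interval that overlaps that of Grb10. Maged1 and Maged2, of the MAGE family to which Ndn belongs, were 1.70-fold (1.56 to 1.85) and 2.10-fold lower (1.86 to 2.37), and Nsmce3, a MAGE subunit of the SMC5/6 complex, was 1.36-fold higher (1.15 to 1.62). Plagl2, the relative of Plagl1, was 1.32-fold higher (1.13 to 1.54) by the authors' deposited table. The CDK inhibitor genes Cdkn1a and Cdkn1b, relatives of Cdkn1c, had log2 fold changes of 0.13 and -0.14 (SE 0.08 and 0.08, DESeq2 adjusted p = 0.184 and 0.186).

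Of 12 tested genes that maintain, read or remove DNA methylation, 6 were lower and 1 higher, beside 22.1% and 22.4% of all tested genes. The means of these 12 ran from 64.1 to 5584 normalized counts. Among all tested genes with a mean of at least 1000, 36.3% were lower. Tet1 and Tet2, enzymes that oxidise methylated cytosine, stood lower by 2.39-fold (95% interval 1.63 to 3.51) and by 1.99-fold (1.40 to 2.85), and Tet3 had a log2 fold change of -0.39 (SE 0.09), in the authors' deposited table. Zfp445, which like ZFP57 protects imprints, was 1.32-fold higher (1.16 to 1.49). Trim28, the co-repressor that ZFP57 recruits, had a log2 fold change of -0.33 (SE 0.08) by the authors' deposited table. Dnmt1, the maintenance methyltransferase, had -0.22 (SE 0.07). Ctcf, the remaining lower gene, had -0.29 (SE 0.10, DESeq2 adjusted p = 0.0146). With the 2 groups set to equal summed means, 4 of the 12 genes were lower and 1 higher. Zfp57 itself had 0.30 (0.19, DESeq2 adjusted p = 0.202 by the authors' deposited table). Read against the t distribution, 0 of these 12 genes passed after adjustment and 6 had an unadjusted p under 0.05. DNA methylation was not measured.

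**Figure D5:**
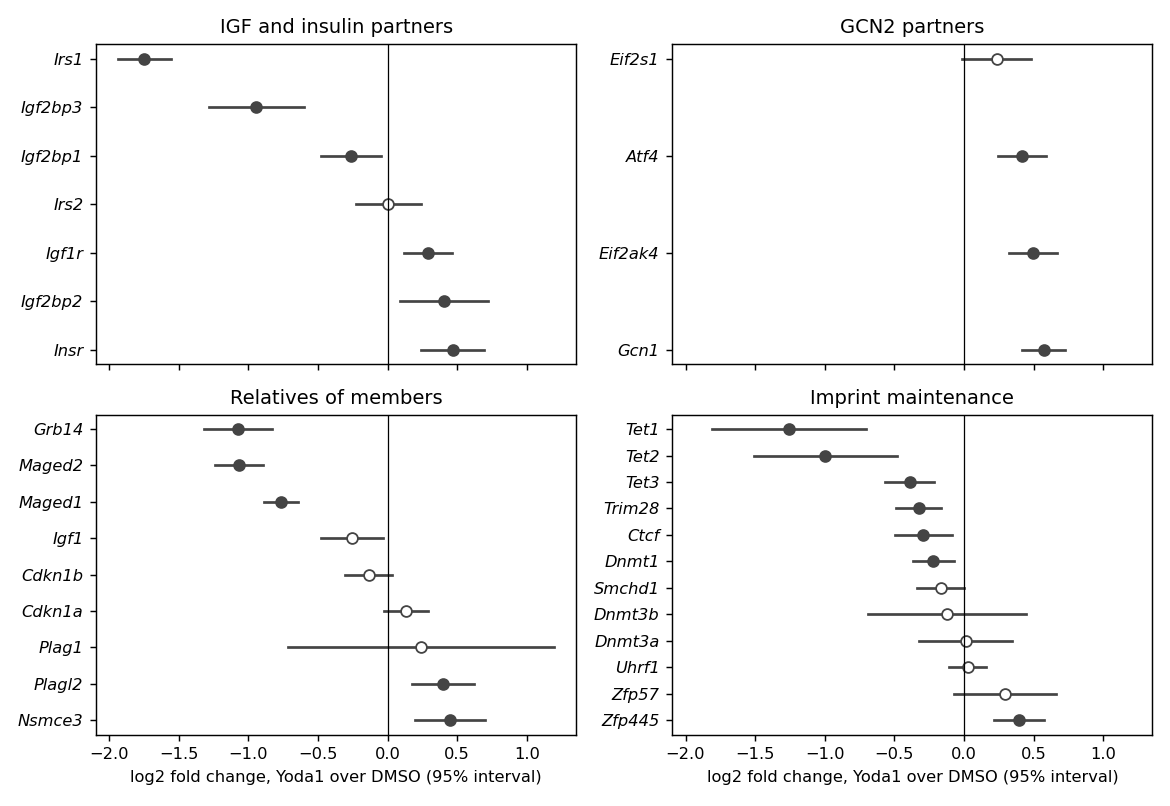
Log2 fold change (Yoda1 over DMSO) with its 95% interval in the authors' deposited table for tested genes of 4 lists, IGF and insulin partners, GCN2 partners, relatives of the members and genes of DNA methylation and imprint maintenance, filled where the adjusted p was under 0.05. Irs1 (-1.75) and Tet1 (-1.26) lie farthest below 0, and the GCN2 partners all lie above it.

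The labelled cell type was checked by its markers. All 8 osteoblast markers had a row. Of these, 6 were lower: Runx2 1.87-fold, Sp7 1.44-fold, Col1a1 2.73-fold, Alpl 60.3-fold, Ibsp 29.9-fold and Postn 5.96-fold. Alpl had a mean of only 47.3 normalized counts and a 95% interval from 24.4-fold to 149-fold. The interval of Ibsp ran from 24.8-fold to 36.1-fold, and its Wald statistic was -35.5, beside -35.3 for Mest. In contrast, Spp1, the osteopontin gene, was 7.44-fold higher (95% interval 6.70 to 8.26) by the authors' deposited table. Among all tested genes 22.1% were lower and 22.4% higher, and 36.3% were lower among those with a mean of at least 1000. Bglap, the osteocalcin gene, had a mean of 4.70 normalized counts and a log2 fold change of -1.85 (SE 1.08, DESeq2 adjusted p = 0.158). The part of these marker changes in the fall of Mest, Plagl1, Grb10 and Impact was not tested, and in bulk RNA fewer cells of a type and less RNA per cell cannot be told apart. Of 6 adipocyte markers, relevant because Mest is also known from fat tissue, 3 had a row, with means from 2.93 to 143 normalized counts, and 0 of the 3 passed the DESeq2 threshold or had an unadjusted p under 0.05. Among 4 muscle markers only Des had a row, at a mean of 26.0, and among 4 blood markers Ptprc stood at a mean of 0.16, while Cd14, which is not limited to blood cells, was 6.64-fold higher (95% interval 5.46 to 8.09). Of the endothelial markers Pecam1, Cdh5 and Tek the means reached 3.82 at most. The chondrocyte markers Sox9 and Col2a1, at means of 2952 and 9605 normalized counts, were lower, and Acan stood at a mean of 0.33. The means of Sox9 and Col2a1 lay above those of Runx2, Sp7, Alpl, Ibsp and Bglap and below those of Col1a1, Spp1 and Postn.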

How the data were processed

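The submitters' processing notes name Salmon, DESeq2 and the mouse build GRCm39 and give no versions. Per the file headers, the deposited table is the output of DESeq2. Its signal column is a mean of normalized counts, averaged by the authors over the libraries fitted, and its log2 fold change and standard error are the authors' values. The deposited Wald statistic is a score equal to their ratio, and the deposited p-value is its two-sided normal tail, with Benjamini-Hochberg adjustment over 14653 rows, all of which was checked on the table. The direction, Yoda1 over DMSO, rests on the table's name. Which libraries entered, and with which model and filters, is not given in the sources used here. The series' design text describes human endothelial cells, so the sample labels were followed.

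The planned test was the authors' comparison where no values per library were held, and that case applied. The members and all lists were chosen with earlier results of these data known. All 9 members are named. Of the other imprinted genes, those called with an absolute log2 fold change of at least 0.5 are named, and some but not all of those in a member's domain. Of each partner list, up to 4 by adjusted p are named. Tet2, Dnmt1, Ctcf, Zfp57 and relatives beyond the first 4 were named after their values were seen. Of the neighbours, up to 6 by Wald statistic are named. IDs were matched to symbols for 3878 of 4447 rows without one, and gene order, transcript lengths and overlaps came from GENCODE M21 (GRCm38). The levels per kilobase thus set values from GRCm39 against lengths from GRCm38. Those lengths were medians over transcripts with the basic tag of that annotation. Intervals (95%), implied group levels and alternatives were computed in Python 3.11.15 with scipy 1.17.1. Calls under the alternatives were also counted on fold changes simulated with the deposited standard errors. That simulation did not check the intervals or the implied levels. Precision followed level: above a mean of 1000 the median standard error was 0.091, and below a mean of 10 it was 1.17. Alternatives were no filter, a mean of 10 or more, 2 centrings, the authors' class (adjusted p under 0.05 and absolute log2 fold change above 0.5), a test against that fold and a t distribution.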

Additional observations from a re-analysis of the deposited data

How the results depend on the processing

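The count of 5 lower members stayed at 4 or 5 under all 7 alternatives, each time with 0 higher, and Mest, Plagl1, Grb10 and Impact passed in every one, with adjusted p of at most 0.0362. The difference of the paternal minus the maternal median over members, 0.55 on the log2 scale, reversed to -0.73 with a mean of 10 or more, a filter that leaves out H19 and Igf2. Testing against 0.5 on the log2 scale left 4 other imprinted genes called of 12, 4 neighbours of 9, 3 relatives of 5, 1 IGF and insulin partner of 6, 0 GCN2 partners of 3 and 1 gene of DNA methylation and imprint maintenance of 7. Reading statistics against a t distribution left 5 neighbours, 3 relatives, 2 IGF and insulin partners and 0 genes of DNA methylation and imprint maintenance. The authors' class left 3 relatives, 2 IGF and insulin partners, 1 GCN2 partner and 2 genes of DNA methylation and imprint maintenance. These alternatives are stricter by construction. The shift subtracted was -0.015 with median centring and -0.11 with equal summed means. No paired analysis was possible because the table used holds no values per library, and leaving out each library was not run for the same reason.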
